A study of Mus musculus with 6 samples.

Results

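The lysyl oxidase family comprises 5 genes, Lox, Loxl1, Loxl2, Loxl3 and Loxl4, which were taken by gene name from a deposited table of 54532 genes. All 5 were present, and all 5 were among the 14774 genes with enough counts to be tested. Left ventricles of 3 TG mice and 3 NTG mice were profiled by RNA-seq of poly-A RNA 4 weeks after aortic banding (AB), a surgical narrowing of the aorta that loads the heart with pressure. All 6 hearts had AB, and no sham-operated heart was analysed here. TG mice (HINT2CTG-Myh6Cre) carried human HINT2, a mitochondrial nucleotide hydrolase, under the CAG promoter, blocked by a stop cassette between loxP sites until Cre, expressed from the cardiomyocyte promoter Myh6 and switched on by tamoxifen, cuts it out. They received tamoxifen at 5 mg/kg per day for 7 days. NTG mice were C57BL/6J by label, and the sources used here do not say whether they received tamoxifen or carried Cre, so transgene, Cre and tamoxifen cannot be told apart. The mice were males, 8 to 10 weeks old at surgery, with 1 library per heart.

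Lysyl oxidases are secreted, copper-dependent amine oxidases. They convert lysine residues of collagen and elastin to reactive aldehydes, which then condense into the covalent crosslinks that make fibres stiff and insoluble. In the heart these enzymes are made mainly by fibroblasts, and they are known from fibrosis under pressure overload. Lox and Loxl1 carry a propeptide that is cut off outside the cell, whereas Loxl2, Loxl3 and Loxl4 carry scavenger receptor domains.

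The NTG libraries held 14863568 to 17581220 counts on genes, and the TG libraries 14944465 to 17235802. Mitochondrially encoded genes took 13.4% to 19.2% and 16% to 21.5% of these counts. The mouse gene Hint2 was counted 793 to 859 times in the TG libraries, 545 times in NTG 2 and 559 times in NTG 3. In the library labelled NTG 1 it was counted only 12 times, which goes against its label but is also far below the TG libraries. Of the NTG libraries, NTG 1 lay nearest to TG on the first principal component (52.3% of the variance), at -5.08 against 55.7 for NTG 2, 29.3 for NTG 3 and -36.5 to -10.7 for TG. Whether this heart had the genotype of its label cannot be told from the labels, so the NTG means below are those of the 3 libraries labelled NTG. Cardiomyocyte markers were high in all 6 libraries, with 8 markers summing to 17000 to 28800 CPM in NTG and 27900 to 34800 CPM in TG. CPM are counts scaled to the same library total after TMM normalization, which evens out differences in composition.

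The members lie on 5 chromosomes, and their counts cover whole genes. On GRCm38, Loxl1 (ENSMUSG00000032334) spans 58287738 to 58313186 of chromosome 9 (minus strand), and Loxl2 (ENSMUSG00000034205) spans 69609068 to 69695834 of chromosome 14 (plus strand). Loxl3 (ENSMUSG00000000693) spans 83034173 to 83052562 of chromosome 6 (plus strand), and Loxl4 (ENSMUSG00000025185) spans 42593982 to 42612813 of chromosome 19 (minus strand). The position of Lox is given with its values. The coding sequences are 1233 bases for Lox, 1821 for Loxl1, 2328 for Loxl2, 2262 for Loxl3 and 2274 for Loxl4.

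Because family members could share reads, the coding stretch of 90 bases in which Loxl1, Loxl2, Loxl3 and Loxl4 share the most positions was compared. It lies near the 3′ end of each coding sequence, in the part that encodes the catalytic domain, and it spans more than 1 exon in each gene, within chr9:58290856-58292643 (minus strand) for Loxl1, chr14:69690196-69692328 (plus) for Loxl2, chr6:83050370-83050572 (plus) for Loxl3 and chr19:42597595-42598019 (minus) for Loxl4. The stretches of these 4 members are shown 5′ to 3′ on the coding strand, from the GENCODE transcripts on GRCm38, and capitals mark the 53 positions at which these 4 are identical.
Loxl1: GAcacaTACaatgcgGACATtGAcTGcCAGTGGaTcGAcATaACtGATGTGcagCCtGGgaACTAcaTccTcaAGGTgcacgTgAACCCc
Loxl2: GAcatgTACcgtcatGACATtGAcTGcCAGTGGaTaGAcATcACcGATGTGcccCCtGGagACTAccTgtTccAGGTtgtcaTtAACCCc
Loxl3: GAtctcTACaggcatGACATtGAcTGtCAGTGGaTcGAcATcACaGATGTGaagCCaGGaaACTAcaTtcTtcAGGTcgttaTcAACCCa
Loxl4: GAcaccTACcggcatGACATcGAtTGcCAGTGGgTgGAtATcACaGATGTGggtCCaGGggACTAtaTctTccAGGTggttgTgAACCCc
In this stretch any 2 of the 4 differed at 21 to 25 of 90 positions, an identity of 72.2% to 76.7%. The search started from in-frame windows of Loxl2 and took the one shared best by all 4. Closer stretches of single pairs, or of Lox with another member, were not sought, so these values do not bound read sharing. The closest stretch of Lox differed from them at 21 to 29 positions, with the highest identity to Loxl1 at 76.7% and the lowest to Loxl2 at 67.8%.

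Overlapping genes bear on 1 member in particular. Loxl3 shares 535 of its 4603 exonic bases with Htra2 on the opposite strand, and the strand setting of the counting was not stated. Htra2, a mitochondrial protease gene, was at 14.6 CPM in NTG and 15 CPM in TG, with a log2 fold change of 0.04 (standard error 0.124). Loxl2 shares 301 exonic bases with the antisense gene Gm27177, which had at most 4 counts in any library.

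Lox (ENSMUSG00000024529; minus strand of chromosome 18, 52516069 to 52529867), the founding member, varied most between hearts. In NTG 1, NTG 2 and NTG 3 it was at 114.2, 613.7 and 177.4 CPM. In TG 1, TG 2 and TG 3 it was at 27.19, 41.44 and 14.07 CPM. Every TG library lay below every NTG library, and NTG 2 stood far above the other hearts. The means were 301.8 ± 272 CPM (SD, n = 3) in NTG and 27.57 ± 13.69 CPM (SD, n = 3) in TG, a log2 fold change of -3.45 (standard error 0.739), or 10.9-fold lower in TG. Among the 14774 genes tested, Lox ranked 10 by the lowest log2 fold change. The highest library was 43.6-fold above the lowest.

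Loxl1, which acts mainly on elastic fibres, varied least between NTG hearts among the 5 members. It was at 209.8, 316.8 and 262.4 CPM in NTG and at 131.6, 194 and 106.9 CPM in TG, in the order of the replicate numbers. The groups did not overlap, but TG 2 came close to NTG 1. The log2 fold change was -0.87 (standard error 0.242), or 1.82-fold lower in TG, and the highest library was 2.96-fold above the lowest.

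Loxl2, an enzyme that oxidises collagen IV and fibrillar collagen, was at 86.29, 188.9 and 148.1 CPM in NTG and at 58.85, 78.62 and 37.04 CPM in TG. The groups again did not overlap, with TG 2 just below NTG 1. The log2 fold change was -1.28 (standard error 0.359).

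Loxl3, a close paralogue of Loxl2, was at 48.2, 137.8 and 85.85 CPM in NTG and at 18.32, 31.89 and 14.75 CPM in TG. All TG libraries were below all NTG libraries. The log2 fold change was -2.06 (standard error 0.445), the second lowest in the family.

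Loxl4 was the least abundant member, with 41, 105 and 105 counts in NTG and 27, 64 and 30 counts in TG. These counts correspond to 2.799, 5.576 and 6.074 CPM in NTG and to 1.947, 3.638 and 1.852 CPM in TG. Here the groups overlapped, since TG 2 lay above NTG 1. The log2 fold change was -0.95 (standard error 0.38).

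**Figure D1:**
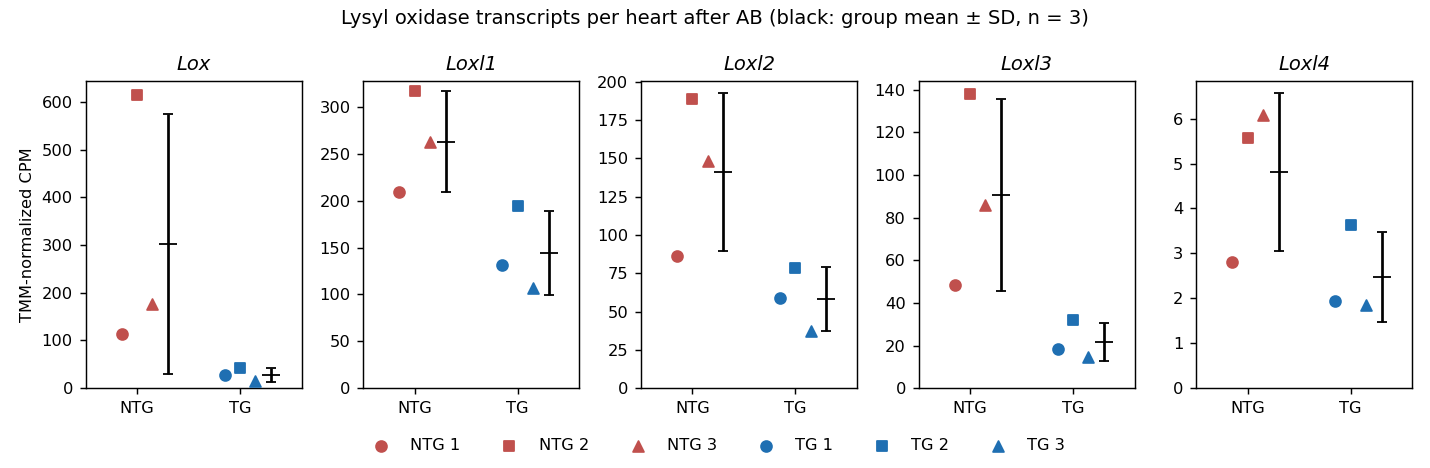
CPM (TMM-normalized, vertical axes from 0, a separate scale for each gene) of the 5 lysyl oxidases in each left ventricle after AB; marker shape gives the replicate number, and the black bars give the mean ± SD of 3 libraries. For Lox, Loxl1, Loxl2 and Loxl3 all TG points lie below all NTG points, while Loxl4 of TG 2 at 3.638 CPM lies above NTG 1 at 2.799 CPM.

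The family was chosen with the fold changes of this contrast in view and so counts as selected on the difference between TG and NTG, which is given as a description that supports nothing further. In edgeR's quasi-likelihood fit, Benjamini-Hochberg adjusted p over all genes tested lay between 0.196 and 0.24 for the 5 members. A gene was called if its adjusted p was below 0.05 and its log2 fold change exceeded 0.5 in either direction. By edgeR, 0 of the 5 members and 0% of all genes were called, while 2747 of all genes had an unadjusted p below 0.05. DESeq2, the tool of the study, called 4 of the 5 lower (Lox, Loxl1, Loxl2 and Loxl3), against 2.4% of all genes tested. The libraries of TG lay below those of NTG without overlap for 4 of the 5, against 12.3% of all genes, and above them for 0 of the 5, against 11.2%. All 5 were fitted lower in TG, as were 51.3% of all genes. Their median log2 fold change of -1.28 compares with -0.01 over all genes tested.

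The size of these differences changed with the hearts included. Without NTG 1 the log2 fold changes of Lox, Loxl1, Loxl2, Loxl3 and Loxl4 were -3.85, -1.01, -1.54, -2.37 and -1.22. Without NTG 2 that of Lox was -2.40, and with each of the 6 hearts left out in turn it ranged from -3.88 (without TG 2) to -2.40. The corresponding ranges were -1.14 to -0.69 for Loxl1, -1.56 to -1.01 for Loxl2, -2.46 to -1.63 for Loxl3 and -1.35 to -0.76 for Loxl4. Without NTG 1, edgeR called Loxl3 (adjusted p = 0.0452) and no other member, and DESeq2 called all 5. DESeq2 lost the calls of Loxl1 and Loxl2 without NTG 2, NTG 3, TG 1 or TG 3, and that of Lox without TG 1 (adjusted p = 0.0647) or TG 3 (adjusted p = 0.0801).

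Per length, the order of the members changed between hearts. In CPM per kb of gene length, Loxl1 had the highest mean level in NTG at 79.8 ± 16.2 (SD, n = 3), followed by Lox at 62.7 ± 56.5, Loxl2 at 26.1 ± 9.56, Loxl3 at 19.7 ± 9.77 and Loxl4 at 1.14 ± 0.419. Within each NTG heart, Lox was above Loxl2 and Loxl2 above Loxl3, while Lox was above Loxl1 in NTG 2 and below it in NTG 1 and NTG 3. In TG the order was Loxl1 at 43.7 ± 13.6, Loxl2 at 10.8 ± 3.85, Lox at 5.73 ± 2.85, Loxl3 at 4.7 ± 1.96 and Loxl4 at 0.588 ± 0.239. Within each TG heart, Loxl1 was the highest, Loxl2 the second and Loxl4 the lowest, while Lox was above Loxl3 in TG 1 and TG 2 and below it in TG 3.

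Of the summed CPM per kb of the 5 genes, Lox made up 20.7%, 44% and 22.5% in NTG 1, NTG 2 and NTG 3, and 9.28%, 9.59% and 6.38% in TG 1, TG 2 and TG 3. Its share was lower in every TG heart than in any NTG heart. Loxl1 made up 55.6%, 33.2% and 48.5% in NTG and 65.5%, 65.5% and 70.7% in TG, so it was the largest part in every heart but NTG 2. The share of Loxl2 overlapped between the groups, from 12.1% to 16.7% in NTG and from 15% to 17.9% in TG. Loxl3 made up 9.15% to 11.4% in NTG and 6.54% to 7.72% in TG. The sum itself was 114.5, 289.9 and 164 CPM per kb in NTG and 60.88, 89.81 and 45.83 CPM per kb in TG.

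**Figure D2:**
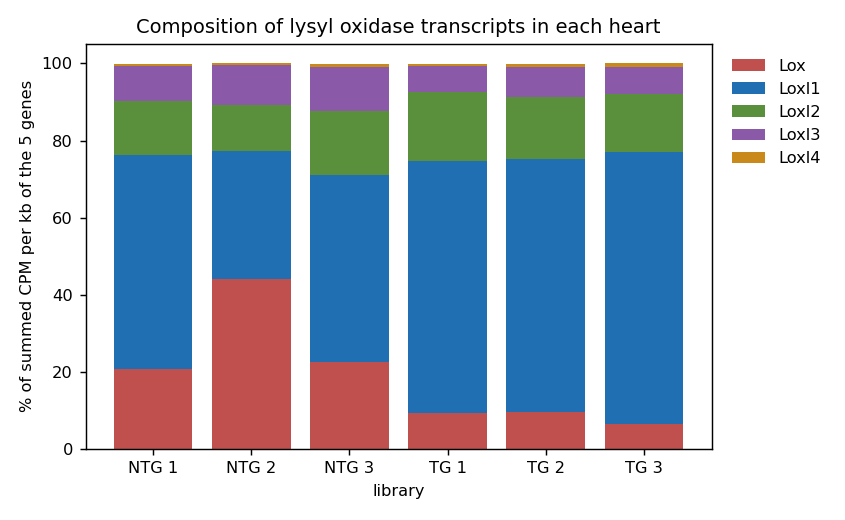
Share of each lysyl oxidase in the summed CPM per kb of the 5 genes (vertical axis, in %), with 1 bar for each library. Lox takes 20.7% to 44% of the bar in NTG and 6.38% to 9.59% in TG, and Loxl1 takes 33.2% to 55.6% in NTG and 65.5% to 70.7% in TG.

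Col1a1 and Col3a1 encode chains of collagen I and collagen III, the main fibrillar collagens of the heart and substrates of these enzymes. Col1a1 (ENSMUSG00000001506) was at 571.4, 1219 and 694.9 CPM in NTG and at 347, 531.2 and 268.4 CPM in TG. Col3a1 (ENSMUSG00000026043) was at 956.1, 2688 and 1385 CPM in NTG and at 589.8, 807.2 and 441.1 CPM in TG. From the lowest to the highest heart, both collagens followed the order TG 3, TG 1, TG 2, NTG 1, NTG 3, NTG 2. Lox, Loxl1, Loxl2 and Loxl3 had this same order. Loxl4 departed from it in 2 places, with NTG 1 below TG 2 and NTG 2 below NTG 3.

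Across the 6 libraries, the log2 CPM of each member was correlated with that of each collagen, which gave 10 pairs. The groups did not overlap on either collagen or on Lox, Loxl1, Loxl2 and Loxl3. This difference between TG and NTG enters each r, so r is given as a description with no test. For Lox, Pearson's r was 0.98 with Col1a1 and 0.99 with Col3a1, and Spearman's rho was 1 with both. For Loxl1, Loxl2 and Loxl3, r lay between 0.96 and 0.98, and rho was 1 in all 6 pairs. For Loxl4, r was 0.89 and rho was 0.89 with both collagens.

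Without NTG 2 and TG 3, the hearts farthest from the median of either collagen, r over the other 4 libraries was 0.89 to 0.998. Within the groups, deviations from the group means gave r of 0.97 and 0.99 for Lox with Col1a1 and Col3a1, 0.95 and 0.89 for Loxl1, 0.92 and 0.92 for Loxl2, 0.96 and 0.97 for Loxl3, and 0.77 and 0.76 for Loxl4. Within each group, the order of the 3 hearts was that of the collagens for Lox, Loxl1, Loxl2 and Loxl3, and for Loxl4 NTG 2 and NTG 3 were exchanged. High correlations were not rare in these libraries: 5.53% to 7.77% of all genes tested had r over 0.9 with a given member. Among 14769 genes, Lox ranked 133 by r with Col1a1 and 60 by r with Col3a1, and Loxl4 ranked 1145 and 1262.

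The members differed in how steeply they followed collagen. On log2 scales, the slope on Col1a1 was 2.53 for Lox, 1.59 for Loxl3, 1.08 for Loxl2, 0.82 for Loxl4 and 0.76 for Loxl1. On Col3a1 the slopes were 2.11, 1.33, 0.90, 0.68 and 0.61 in the same order. Hence Lox and Loxl3 varied by more than the collagens and Loxl1 and Loxl4 by less, while Loxl2 lay between them at 1.08 and 0.90.

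**Figure D3:**
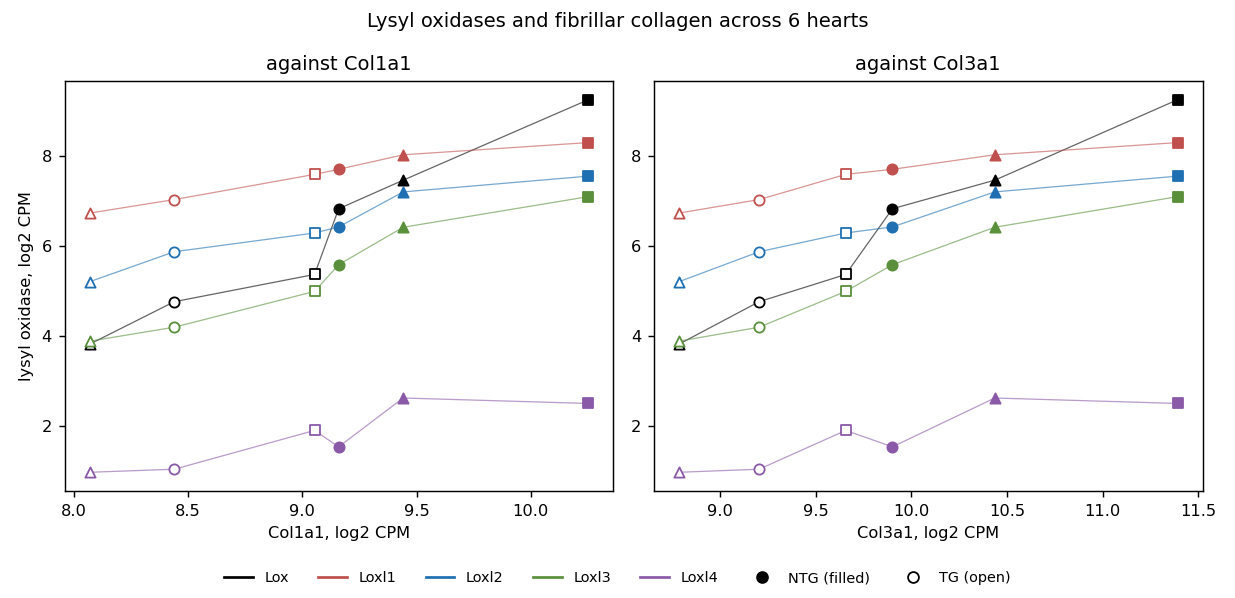
Log2 CPM of the 5 lysyl oxidases (vertical axis) against log2 CPM of Col1a1 (left) and Col3a1 (right), 1 point for each library, filled for NTG and open for TG, with lines joining the libraries of a gene. The line of Lox is the steepest, with a slope of 2.53 on Col1a1, and it crosses those of Loxl1 and Loxl2; Loxl4 lies far below the others.

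The ratio of each member to collagen was also taken in each heart. With a slope other than 1, such a ratio still varies with the level of collagen, as it did for Lox. Per 1000 counts of Col1a1, Lox had 200, 503 and 255 counts in NTG 1, NTG 2 and NTG 3, and 78.4, 78 and 52.4 counts in TG 1, TG 2 and TG 3. The mean log2 ratio was -1.76 ± 0.691 (SD, n = 3) in NTG and -3.87 ± 0.333 in TG, lower by 2.11 in TG without overlap. To Col3a1 the log2 ratio of Lox was lower in TG by 1.84, also without overlap.

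Loxl3 had 84.3, 113 and 124 counts per 1000 counts of Col1a1 in NTG and 52.8, 60 and 55 in TG. Its log2 ratio was -3.24 ± 0.288 (SD, n = 3) in NTG and -4.16 ± 0.0946 in TG, and the groups did not overlap. Relative to Col3a1, Loxl3 was lower in TG by 0.66 on the log2 scale, without overlap.

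Loxl1 had 367, 260 and 378 counts per 1000 counts of Col1a1 in NTG and 379, 365 and 398 in TG, and the groups overlapped. Relative to Col3a1 it was higher in all TG hearts, with 219, 118 and 189 counts per 1000 in NTG and 223, 240 and 242 in TG, although TG 1 and NTG 1 were close. Loxl2 overlapped between the groups for both collagens, with log2 differences of -0.18 to Col1a1 and 0.09 to Col3a1. Loxl4 overlapped as well, with differences of 0.15 and 0.41. These ratios are descriptions with no test, since they come from the same hearts and the same contrast.

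**Figure D4:**
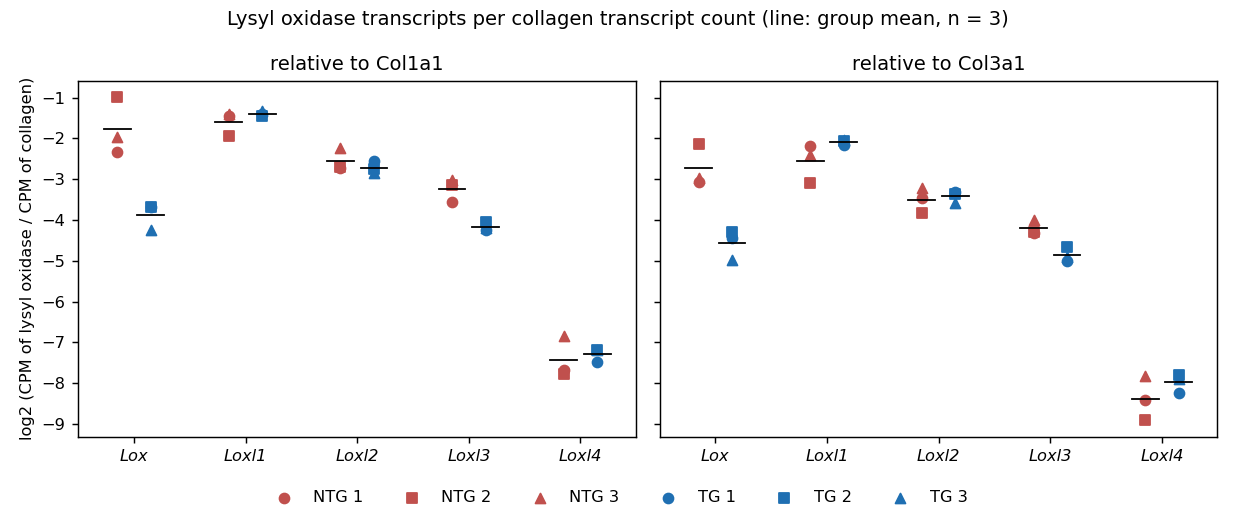
Log2 ratio of the CPM of each lysyl oxidase to that of Col1a1 (left) and Col3a1 (right) in each library, with black lines for the mean of 3 libraries. Lox and Loxl3 lie lower in TG than in NTG in both panels without overlap, whereas Loxl2 and Loxl4 overlap in both.

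The members also varied with one another. Between Lox, Loxl1, Loxl2 and Loxl3, r over the 6 libraries was 0.96 to 0.99, and 0.87 to 0.96 for deviations from the group means. Loxl4 was less close to the others, at 0.86 to 0.94 and 0.69 to 0.89.

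Genes outside the family among the 5 most like each member by r are given as a description over 6 libraries. For Lox these included Piezo2 (a mechanically gated channel), Dcbld2, Slc33a1 and Ddah1 (which degrades an inhibitor of nitric oxide synthase), with r of 0.996 to 0.999. Piezo2, the closest of them, had a log2 fold change of -1.73 (standard error 0.357), with the same order of hearts as Lox but a smaller change. For Loxl1 they were Stau1, Fstl3 (an activin antagonist), Pamr1, Emp1 and Tnfrsf11b (osteoprotegerin). For Loxl2 they were Itgb1 (the integrin beta 1 chain), Fbn1 (fibrillin 1 of microfibrils), Synpo, Ncs1 and Slc3a2. For Loxl3 they were Mmp23, Pes1, Frzb (a secreted Wnt antagonist), Inhbb (an activin subunit) and Ncl. For Loxl4 they were Zeb1, Qpct, Zfp869, Ace (angiotensin-converting enzyme) and Pdcd6ip. Likeness in profile did not mean likeness in size, since Stau1 had a log2 fold change of -0.15 (standard error 0.0831) and Inhbb one of -2.30 (standard error 0.505).

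Other genes of collagen crosslinking were read by role from lists of 62 genes, of which 61 were tested. edgeR called 0 of them, and 35 were lower and 2 higher at an unadjusted p under 0.05, against 9.76% and 8.83% of all genes. DESeq2 called 17 lower, against 2.4% of all genes, and 0 higher, against 1.54%. Of the 61, 49 were fitted lower, against 51.3% of all genes. TG lay lower without overlap for 22 and higher for 1, against 12.3% and 11.2% of all genes.

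Substrates came first. Of 9 collagen and elastin genes tested, 6 were fitted lower in TG, DESeq2 called 3 lower and 0 higher, and the median log2 fold change was -0.74. Col5a2, a collagen V chain of the fibril core, was at 231.4, 668.7 and 376.7 CPM in NTG and at 120.5, 184.7 and 87.97 CPM in TG, with a log2 fold change of -1.70 (standard error 0.438). Col1a2, the partner chain of Col1a1, had -1.18 (standard error 0.34) and Col3a1 had -1.45 (standard error 0.407). DESeq2 called Col5a2, Col1a2 and Col1a1, but not Col3a1 (adjusted p = 0.0735, DESeq2).

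Proteins that process, load or position lysyl oxidases and their substrates formed the next list. Of 15 genes tested, 12 were fitted lower, DESeq2 called 6 lower and 0 higher, and the median log2 fold change was -0.68. Fbln5, which tethers elastin and Loxl1 to microfibrils, was at 104.6, 149.3 and 132.8 CPM in NTG and at 72.77, 74.59 and 51.73 CPM in TG, without overlap, and its log2 fold change was -0.96 (standard error 0.179). Mfap4, a microfibril-associated glycoprotein, had -1.49 (standard error 0.348), and Fmod, a proteoglycan that binds collagen, had -1.90 (standard error 0.446).

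Hydroxylases and chaperones prepare collagen inside the cell before lysyl oxidases act on it. Of 18 genes tested, 15 were fitted lower, DESeq2 called 4 lower and 0 higher, and the median log2 fold change was -0.36. Plod2, the hydroxylase of telopeptide lysines that sets the kind of crosslink, was at 69.56, 102.7 and 71.27 CPM in NTG and at 43.2, 49.29 and 35.56 CPM in TG, without overlap, with a log2 fold change of -0.93 (standard error 0.183). P3h2, a prolyl 3-hydroxylase, had -0.86 (standard error 0.222), and Fkbp10, a collagen chaperone, had -0.74 (standard error 0.195).

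Crosslinkers of other kinds were 4 genes. All 4 were fitted lower, DESeq2 called 0, and the median log2 fold change was -0.51. Tgm1, a transglutaminase, had -1.46 (standard error 0.427) at a mean of 1.44 CPM in NTG, F13a1, the factor XIII transglutaminase, had -0.70 (standard error 0.261), and Tgm2, the tissue transglutaminase, had -0.32 (standard error 0.177), the groups overlapping for F13a1 and Tgm2.

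Upstream factors known to induce lysyl oxidases were 15 genes. Of these, 12 were fitted lower, DESeq2 called 4 lower and 0 higher, and the median log2 fold change was -0.27. Tgfbr1, the type I receptor for TGF-beta, was at 71, 110.7 and 70.12 CPM in NTG and at 43.63, 52.53 and 48.46 CPM in TG, without overlap, with a log2 fold change of -0.80 (standard error 0.187). Hif1a, the hypoxia-inducible factor, had -0.84 (standard error 0.201), and Tgfb2, a TGF-beta ligand, had -1.11 (standard error 0.27). Not all of the list lay lower, since Tgfb1 had -0.02 (standard error 0.149). Srf was higher in TG without overlap, with a log2 fold change of 0.31 (standard error 0.117). The median of the lysyl oxidases was -1.28, but that family was chosen with these fold changes in view, so it is not ranked against the lists.

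**Figure D5:**
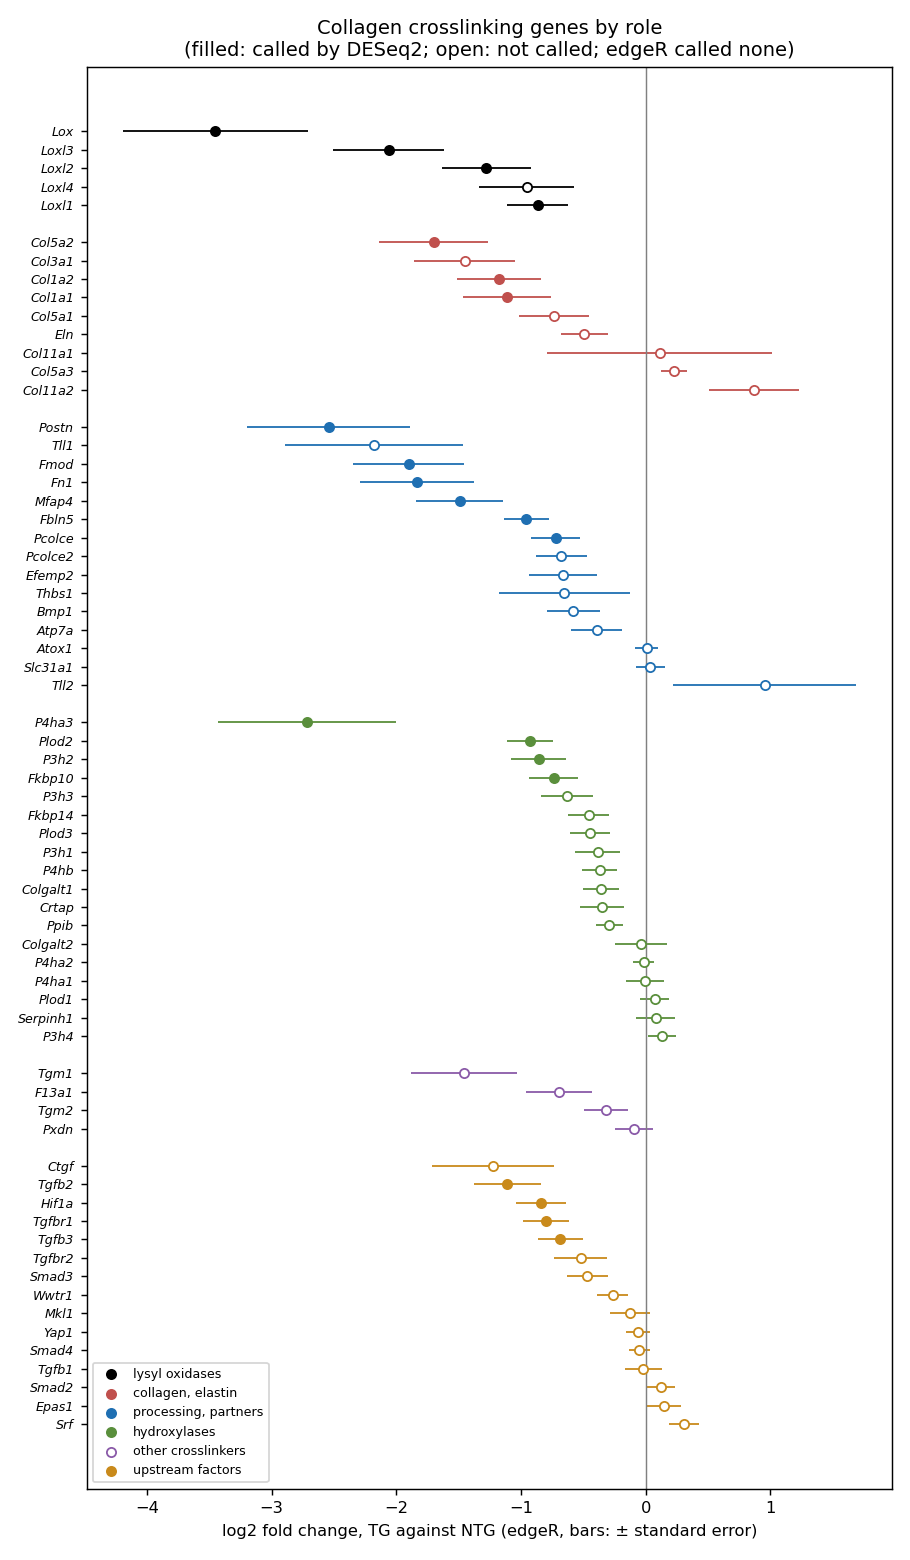
Log2 fold change of TG against NTG (horizontal axis, edgeR, bars give ± 1 standard error) for the lysyl oxidases and the 61 tested genes of the 5 lists, ordered within each role. Filled points were called by DESeq2 and open points were not; Lox at -3.45 lies farthest to the left, and edgeR called none.

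Markers of some other cell types varied along with the family. The sum of the 8 endothelial markers was 1740 to 2030 CPM in NTG and 1800 to 1970 CPM in TG, with members on both sides. Among them, Vwf had a log2 fold change of -0.81 (standard error 0.285) and Kdr one of 0.37 (standard error 0.132). In whole ventricle, fewer cells of a type and less RNA per cell cannot be told apart. The 8 markers of activated fibroblasts (Postn, Cthrc1, Acta2, Fap, Cilp, Meox1, Ltbp2 and Comp) summed to 2140 to 6240 CPM in NTG and 530 to 1530 CPM in TG, and DESeq2 called 5 of the 8 lower, against 2.4% of all genes. Postn, which is also in the list of partners, held much of this sum, at 942.7, 3566 and 2082 CPM in NTG and at 281.3, 672.1 and 178.1 CPM in TG. Acta2, the smooth muscle actin, lay the other way in every heart, at 83.48 to 88.57 CPM in NTG and 113.5 to 120 CPM in TG, with a log2 fold change of 0.42 (standard error 0.0831). The sum of the 8 had an r of 0.98 with Lox over the 6 libraries, as a description. The 8 smooth muscle and pericyte markers summed to 1330 to 1700 CPM in NTG and 1540 to 1840 CPM in TG. Among them DESeq2 called Myh11 (log2 fold change 0.70) and Cnn1 (log2 fold change 0.75) higher, against 1.54% of all genes, and 0 lower. The 8 general fibroblast markers summed to 3900 to 4530 CPM in NTG and 3330 to 4500 CPM in TG, with an r of 0.36 to Lox. Of the 8, 7 were fitted lower, against 51.3% of all genes, and DESeq2 called only Dcn. The general fibroblast sum depended on Gsn, at 1316 to 2234 CPM in NTG and 1933 to 2605 CPM in TG. Without Gsn, an alternative chosen after its values were seen, the other 7 summed to 2106, 2582 and 2299 CPM in NTG and to 1402, 1892 and 1498 CPM in TG, without overlap. Among single genes tested, 12.3% lay lower in TG without overlap. Dcn held much of the sum of these 7, at 1293, 1649 and 1510 CPM in NTG and at 812, 1140 and 887 CPM in TG. Tcf21, in contrast, had a log2 fold change of -0.05 (standard error 0.205). The cardiomyocyte sum was lowest in NTG 2, where Lox was highest, and had an r of -0.94 with Lox.

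Blood cell markers moved with some of these hearts too. The 8 neutrophil markers, of which 5 were tested, summed to 280.7 CPM in NTG 2 and to 8.76 to 41.3 CPM in the other libraries. The 8 erythroid markers summed to 1310 to 2250 CPM in NTG and 763 to 908 CPM in TG, with an r of 0.93 to Lox, and the 8 macrophage markers to 588 to 1150 CPM and 488 to 681 CPM. Markers of atrial tissue summed to 222.7 CPM in TG 3 and 98.37 CPM in NTG 1, and to 31.2 to 61.3 CPM in the other 4 libraries. The part of these cell types in the levels of the lysyl oxidases was not tested.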

How the data were processed

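RNA-seq of 3 TG and 3 NTG left ventricles after AB was used. The authors cleaned the reads with in-house scripts, mapped them, predicted transcripts with StringTie, counted reads per gene with featureCounts and deposited raw counts, without normalization or pooling. The submitters' processing notes name HISAT2, DESeq2 and the build GRCh38, without a role. The gene identifiers of the table are mouse ones, 54495 of 54532 of them in GENCODE M21 (GRCm38), and 98.3% of these had identical positions, so positions are given on GRCm38. Those of Lox differ slightly from that annotation. Strand setting and handling of multi-mapping reads were not stated. In the table, 27 gene names had turned into dates and were restored from the annotation. All 6 columns were matched by label, and each pair of libraries differed by more than sampling noise. No batch was given.

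The deposited counts were fitted by edgeR 4.0.16 under R 4.3.3 (TMM, filterByExpr, robust quasi-likelihood test), with Benjamini-Hochberg adjustment over all genes tested. Calls needed an adjusted p below 0.05 and a log2 fold change beyond 0.5 in either direction. DESeq2 1.42.0, limma 3.58.1 (voom) and the other alternatives used the same counts, and the tests were first tested on simulated data. The common biological coefficient of variation was 18.7%. Log2 CPM for correlations had a prior count of 2. Correlations with collagen and ratios to it are given with no test, since both genes of a pair differed between the groups in the contrast known beforehand; exact permutation p for these correlations were computed but are not reported. Nothing says how the hearts were assigned to preparation, so an effect of preparation cannot be told apart from that of the group. The p-values weigh the difference between groups against the spread between libraries within groups.

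The members and lists were chosen with earlier results of these data known, so the comparison of TG with NTG for the members is no independent evidence. Lists were written from general knowledge. Genes named were the members, Col1a1, Col3a1 and Hint2, the 3 tested genes of each list with the smallest unadjusted p, the 5 genes most like each member (1 of those for Lox is not reported here), and markers of the cell types described. Htra2 and Gm27177 were named because they overlap members, and Tgfb1 and Srf as upstream factors that were unchanged or higher. Ctgf and Mkl1 stand for Ccn2 and Mrtfa, as the table spells them. Nothing says that replicate numbers pair the hearts, and the main fit did not pair them.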

Additional observations from a re-analysis of the deposited data

How the results depend on the processing

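The log2 fold changes of the 5 lysyl oxidases kept their direction under all 24 alternatives. The 10 correlations with collagen, given with no test, were positive throughout, and r was 0.84 to 0.998 with each heart left out in turn. With each heart left out, the difference in log2 ratio to Col1a1 ranged from -2.39 to -1.72 for Lox, 0.03 to 0.30 for Loxl1, -0.26 to -0.02 for Loxl2, -1.08 to -0.81 for Loxl3 and -0.03 to 0.44 for Loxl4. The counts of calls changed more. From 0 genes, 0 lysyl oxidases and 0 genes of the lists, they became 583, 4 and 17 with DESeq2 and 545, 4 and 17 with edgeR's likelihood-ratio test, while limma voom called 0. Without a low-count filter, 232 genes, 0 lysyl oxidases and 3 genes of the lists were called. With each heart left out in turn, edgeR called 0 to 836 genes, 0 to 1 lysyl oxidase and 0 to 13 genes of the lists, the highest without NTG 1, and DESeq2 called 96 to 1773 genes (1773 without NTG 1, 778 without TG 2, 179 without TG 1, 169 without NTG 3, 123 without NTG 2 and 96 without TG 3), 1 to 5 lysyl oxidases and 2 to 29 genes of the lists (29 without NTG 1 and 23 without TG 2). The cause of these changes was not tested. DESeq2 called Loxl3 in all 6 of these fits, Lox in all but those without TG 1 or TG 3, Loxl1 and Loxl2 only without NTG 1 or TG 2, and Loxl4 only without NTG 1.

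Whether the replicate numbers pair the hearts was not stated. Deviations from the group means of same-numbered hearts had correlations of 0.08, 0.17 and -0.25, which cannot decide this with 3 hearts a group. With the replicate number as a block, edgeR called 231 genes, 2 lysyl oxidases (Loxl1 and Loxl3) and 11 genes of the lists. DESeq2 with this block, added after the data were seen, called 812, 4 and 24.

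Loxl4 had the fewest counts, at 27 to 105 per library. With 3 hearts a group, each heart left out moved the size of the differences. The largest sizes came without TG 2 for all 5 members, and the smallest without NTG 2 for Lox, Loxl2 and Loxl3, without TG 3 for Loxl1 and without NTG 3 for Loxl4.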
